A study of Mus musculus with 20 samples.

Results

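The mitochondrial ribosomal protein genes were taken as every gene in both deposited count tables whose symbol is Mrpl or Mrps, then a number and at most a single letter, with pseudogenes left out. The rule found 78 of 50559 genes, 49 of them named Mrpl and 29 named Mrps. All 78 passed the filter on low counts, at least 1 CPM (reads of a gene scaled to a fixed library total) in at least 5 libraries, and stood among the 14333 genes tested. By what their proteins are known to build, 51 belong to the large subunit of the mitochondrial ribosome and 26 to the small subunit. Symbol and subunit do not always match: Mrps18a and Mrps30 encode large subunit proteins, and Mrps36 encodes a protein now placed in the 2-oxoglutarate dehydrogenase complex, so it is kept apart.

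Mitochondria have ribosomes of their own, which translate the few mRNAs made from mitochondrial DNA, all of them for subunits of the respiratory chain and ATP synthase. The ribosomal RNAs come from mitochondrial DNA, whereas every protein of these ribosomes is encoded in the nucleus, made in the cytosol and imported. Part of the proteins have counterparts in bacterial ribosomes and part occur in mitochondria alone. In liver, whose hepatocytes are rich in mitochondria, this machinery supplies the subunits of the respiratory chain and ATP synthase that are encoded in the organelle.

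Bulk mRNA was sequenced from 20 libraries of C57Bl6J wild-type mice, 5 in each of 4 groups. Plasmids were pushed into hepatocytes of young adult females by hydrodynamic injection into the tail vein, with the Sleeping Beauty transposase SB100X, so only a subset of hepatocytes took them up. The Aldafermin+MYC tumors carried MYC with Aldafermin, an engineered analog of the hormone FGF19, and the FGF19+MYC tumors carried MYC with human FGF19. The sgTrp53+MYC tumors carried MYC with Cas9 and a guide RNA against Trp53, the gene of the tumor suppressor p53. A guide can disrupt a gene and leave its mRNA in place, so Trp53 mRNA alone does not check the edit. All 3 tumor groups therefore share MYC, under the EF1a promoter, and no group carried MYC alone. The fourth group, livers, is labelled healthy and non treated, while the methods of the study speak of control mice given a plasmid for a red fluorescent protein. The sgTrp53+MYC samples were grouped by title, since their treatment label reads None. Mice were fasted before collection, and livers were taken at signs of tumors or at set end points, which the labels do not give per sample. RNA came from individual tumors, and each of the 20 libraries carries a sample code of its own.

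The libraries held between 18004977 and 66354724 reads counted in genes. The 5 sgTrp53+MYC libraries came in a count table of their own, with 54042455 to 66354724 gene reads and 11.1 to 14.6% of reads set aside as ambiguous between genes, against 3.03 to 6.30% in the other table, so the table and the genotype cannot be told apart in any comparison with sgTrp53+MYC. Trp53 mRNA lay at 18.7 to 79.9 CPM in sgTrp53+MYC tumors, 90.8 to 176 in Aldafermin+MYC tumors, 110 to 155 in FGF19+MYC tumors and 28.8 to 36.4 in livers. The summed level of 8 hepatocyte markers was 184600 to 235500 CPM in livers and 3296 to 29410 CPM in tumors, and all 8 markers were lower in both tumor sets. Summed endothelial markers reached 220 to 357 CPM in livers and 51.9 to 178 CPM in tumors, macrophage markers 338 to 513 and 95.04 to 514 CPM, and stellate and fibroblast markers 262 to 418 and 144 to 2084 CPM. Cholangiocyte markers stood at 779 CPM in sgTrp53+MYC replicate 2 and at 1.81 to 124 CPM in every other library, and the T and NK cell list stayed under 6 CPM with Trac at 0. In these bulk samples, fewer cells of a type and less RNA per cell cannot be told apart, and the part of cell makeup in the results below was not tested.

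Within each tumor group a single library stood apart, namely Aldafermin+MYC replicate 5, FGF19+MYC replicate 1 and sgTrp53+MYC replicate 1. In these 3 libraries short transcripts were high relative to the group mean and long transcripts low, with Spearman correlations across genes between deviation and transcript length of -0.44, -0.45 and -0.51. They held the highest value of their group for 64, 69 and 69 of the 78 genes. The median transcript length of the 78 genes was 1812 bases, against 3161 bases over all genes tested, so they lie on the side that is high in those libraries. Main results are therefore given with and without these 3 libraries, an alternative chosen after the data were seen. The cut was a correlation under -0.4. Liver replicate 4, at -0.35, leaned the same way and held the highest summed level of the livers (3796 CPM), but was kept.

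The start regions of 6 genes are shown because they carry the contrasts described further on: Mrpl3 and Mrps26, among the genes with the largest rise in tumors, Mrpl12, the most abundant per length in liver, Mrpl14 and Mrpl43, the genes with fold changes below 0 against liver in both tumor sets after TMM scaling, and Mrps11, which faces Mrpl46. Each window runs from 250 bases before to 50 bases after the RefSeq start in build GRCm38.p6, written 5′ to 3′ on the gene's strand. Capitals mark matches on either strand, overlaps included, to 4 searched motifs: the E-box CACGTG that MYC binds, CCGGAAG of the ETS family that includes GABPA, the palindromic motif of NRF1, and AAGATGGC of YY1.
Mrpl3 (chr9:105053018-105053317, plus strand): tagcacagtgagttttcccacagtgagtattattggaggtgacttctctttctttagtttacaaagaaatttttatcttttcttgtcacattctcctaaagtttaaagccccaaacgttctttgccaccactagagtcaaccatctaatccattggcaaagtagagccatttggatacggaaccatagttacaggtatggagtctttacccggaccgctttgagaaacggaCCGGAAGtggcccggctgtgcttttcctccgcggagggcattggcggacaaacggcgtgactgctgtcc
Mrps26 (chr2:130563507-130563806, plus strand): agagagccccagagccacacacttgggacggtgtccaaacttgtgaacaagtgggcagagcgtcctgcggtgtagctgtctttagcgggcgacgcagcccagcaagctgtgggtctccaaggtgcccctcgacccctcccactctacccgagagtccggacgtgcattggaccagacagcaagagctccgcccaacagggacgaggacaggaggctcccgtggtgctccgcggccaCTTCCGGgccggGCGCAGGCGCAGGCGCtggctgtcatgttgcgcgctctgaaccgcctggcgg
Mrpl12 (chr11:120484387-120484686, plus strand): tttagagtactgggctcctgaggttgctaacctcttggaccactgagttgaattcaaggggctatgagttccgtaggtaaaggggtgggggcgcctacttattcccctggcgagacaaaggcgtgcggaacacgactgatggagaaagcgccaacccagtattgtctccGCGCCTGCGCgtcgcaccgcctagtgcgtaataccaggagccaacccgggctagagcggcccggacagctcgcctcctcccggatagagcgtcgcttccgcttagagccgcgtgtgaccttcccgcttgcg
Mrpl14 (chr17:45686099-45686398, plus strand): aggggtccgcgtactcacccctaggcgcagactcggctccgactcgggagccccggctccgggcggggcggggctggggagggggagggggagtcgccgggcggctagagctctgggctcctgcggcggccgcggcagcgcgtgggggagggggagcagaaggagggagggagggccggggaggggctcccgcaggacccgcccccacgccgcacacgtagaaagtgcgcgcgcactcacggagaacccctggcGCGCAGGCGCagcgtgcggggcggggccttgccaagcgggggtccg
Mrpl43 (chr19:45006393-45006692, minus strand): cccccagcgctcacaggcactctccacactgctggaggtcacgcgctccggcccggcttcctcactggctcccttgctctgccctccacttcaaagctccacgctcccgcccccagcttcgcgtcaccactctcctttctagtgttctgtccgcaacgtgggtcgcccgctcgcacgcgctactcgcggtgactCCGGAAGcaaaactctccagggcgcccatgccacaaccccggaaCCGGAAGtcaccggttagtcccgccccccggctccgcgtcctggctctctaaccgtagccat
Mrps11 (chr7:78782881-78783180, plus strand): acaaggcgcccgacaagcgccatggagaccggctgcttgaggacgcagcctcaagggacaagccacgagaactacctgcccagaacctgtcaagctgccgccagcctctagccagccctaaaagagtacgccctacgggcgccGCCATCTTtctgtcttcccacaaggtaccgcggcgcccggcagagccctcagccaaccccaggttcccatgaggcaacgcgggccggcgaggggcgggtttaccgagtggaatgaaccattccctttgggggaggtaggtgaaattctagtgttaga

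In Mrpl3 the capitals are an ETS match beginning 19 bases before the start, and in Mrps26 an ETS match 14 bases before it is followed by a pair of overlapping NRF1 matches. Mrpl12 and Mrpl14 each hold an NRF1 match, 81 bases before the start in Mrpl12 and just inside the transcript in Mrpl14. Mrpl43 holds 2 ETS matches, and Mrps11 a YY1 match 107 bases before its start. A start region was found for 69 of the 78 genes. The ETS letters occurred in 25 of 69 windows (36.2%), against 17.6% of 10635 windows of genes tested and 9.12% of all 27025 windows. YY1 letters occurred in 12 of 69 (17.4%) against 4.6 and 2.88%, and NRF1 letters in 13 of 69 (18.8%) against 10.1 and 4.78%. The E-box occurred in 5 of 69 (7.25%), against 10.2% of genes tested and 7.24% of all windows. ETS letters were found in 12 of 42 windows of genes that rose in both comparisons with livers (28.6%) and in 8 of 13 windows of genes that rose in neither (61.5%). A match describes these letters only and is neither a bound site nor a cause.

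Added over the 78 genes, mitochondrial ribosomal protein mRNA was higher in each of the 15 tumor libraries than in any liver. The sum, in CPM scaled by TMM (a normalization that sets most genes equal between libraries), was 2900 to 3796 in livers with a mean of 3326 ± 385 (SD, n = 5). It was 5272 to 8635 in Aldafermin+MYC tumors (6341 ± 1429, n = 5), 5067 to 8655 in FGF19+MYC tumors (5976 ± 1507, n = 5) and 4594 to 9277 in sgTrp53+MYC tumors (6002 ± 1892, n = 5). The highest sum of each tumor group belonged to the library that stands apart there, and the group medians were 5708, 5446 and 5374 against 3297 in livers. As a share of all gene reads, with no scaling between libraries, the genes took 0.196 to 0.237% of reads in livers and 0.577 to 0.962% in tumors. Single genes spread around their group mean with a median coefficient of variation of 13.5% in livers, 23.4% in Aldafermin+MYC, 23.9% in FGF19+MYC and 33.6% in sgTrp53+MYC tumors.

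**Figure D1:**
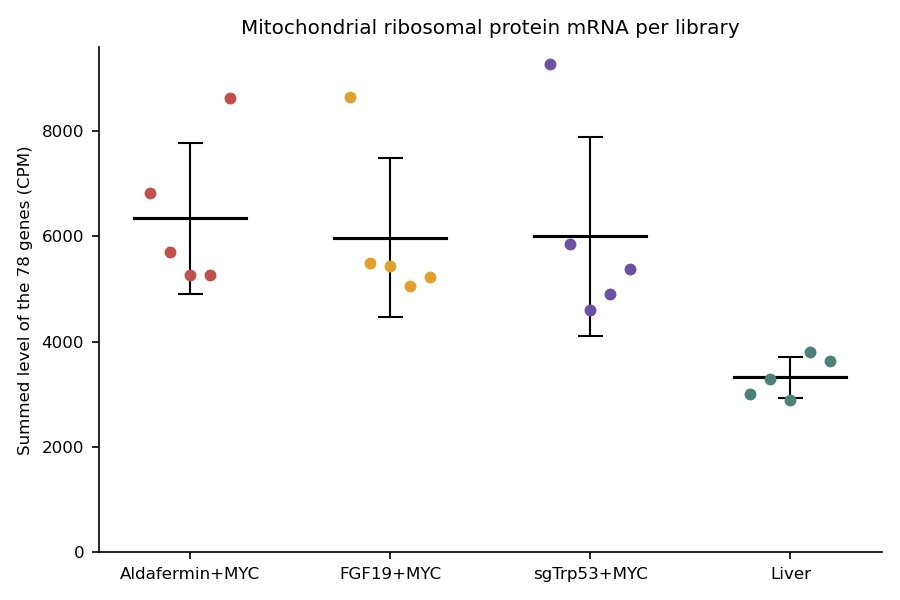
Summed level of the 78 mitochondrial ribosomal protein genes in CPM on the vertical axis for each of the 20 libraries by group. Points are libraries, the long bar the mean and the whiskers 1 SD; the livers sit between 2900 and 3796 and every tumor library lies above them, from 4594 to 9277.

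In livers the mean level ran from 9.89 CPM for Mrps6 to 194 CPM for Mrpl12, with a median of 36.2 CPM over the 78 genes. The smallest single count was 98 reads, also for Mrps6. Per kilobase of canonical transcript, Mrpl12 (79.2 CPM per kb), Mrpl38 (71.3) and Mrpl42 (70.7) stood highest in livers and Mrps25 (2.18), Mrpl19 (3.26) and Mrpl47 (3.89) lowest. Mrpl19, the lowest but for Mrps25, was also the gene with the largest rise in tumors. Transcript lengths came from GENCODE and the counts from RefSeq gene models, so a level per length is only as good as the match between them.

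Whether the tumors driven by MYC with an FGF19-type hormone differ from liver was asked with the Aldafermin+MYC and FGF19+MYC tumors pooled, as the study pooled them. Most mitochondrial ribosomal protein mRNAs were higher in the tumors. By edgeR's quasi-likelihood test with Benjamini-Hochberg adjustment over all 14333 genes, 58 of 78 rose and 0 fell (74.4%), where 39.2% of all genes tested rose, 34.5% fell and 73.7% changed either way. The median log2 fold change was 0.94, a 1.92-fold higher level, against 0.10 over all genes tested, and 76 of the 78 fold changes were above 0. For 51 genes every one of the 10 tumor libraries lay above every liver, and for 0 genes below, where 28.5% of all genes did so above and 25.7% below. In 34 genes the log2 fold change was over 1. Leaving out the 3 libraries that stand apart gave 60 higher and 1 lower, with the 58 among the 60, and a median of 0.80. The share of all genes that changed either way was then 78.4%.

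**Figure D2:**
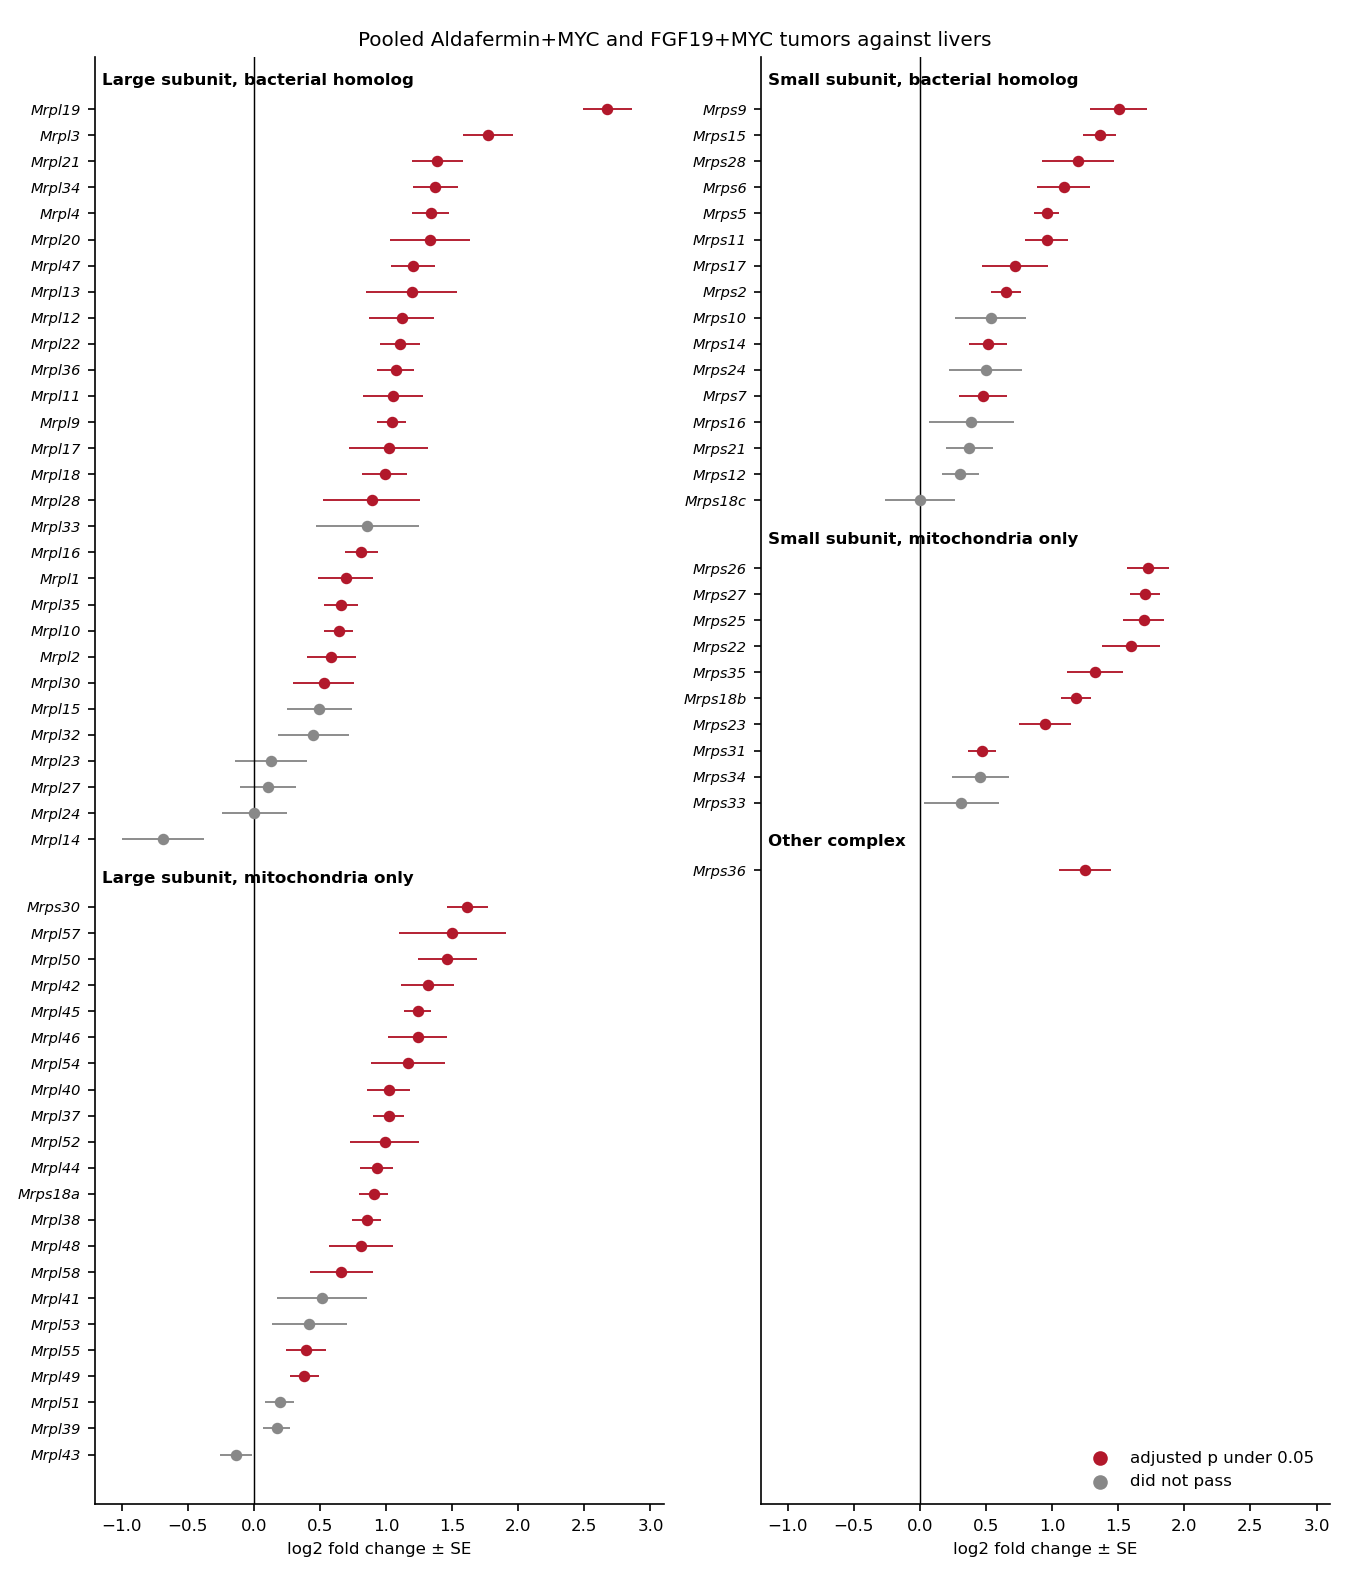
Log2 fold change with its SE (horizontal axis) of pooled Aldafermin+MYC and FGF19+MYC tumors against livers for each of the 78 genes, grouped by subunit and by whether a bacterial counterpart is known. Red points passed an adjusted p of 0.05 and grey points did not; Mrpl19 lies farthest right at 2.67, and Mrpl14 at -0.69 and Mrpl43 at -0.14 lie left of 0, both turning above 0 (0.13 and 0.70) with library size as the only scaling.

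Against the same livers, the sgTrp53+MYC tumors gave a close picture. In edgeR's quasi-likelihood test 55 of 78 genes rose and 0 fell (70.5%), with 36.9% of all genes higher, 33.0% lower and 69.9% changed. The median log2 fold change was 0.83 (1.77-fold), against 0.07 over all genes, and 73 of 78 were above 0. All 5 tumors lay above all 5 livers for 42 genes and below for 0, against 28.8 and 27.4% of all genes. Without the 3 libraries 55 rose and 3 fell, 54 of the 55 being shared, and the median was 0.66, while 74.8% of all genes changed either way. Both comparisons use the same livers, so the 49 genes that rose in both, the 9 that rose only in the pooled tumors, the 6 that rose only in sgTrp53+MYC and the 14 that passed in neither are a count and not independent support.

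The subunits were counted apart. Of 51 large subunit genes 39 rose in the pooled tumors and 35 in sgTrp53+MYC, with medians of 0.93 and 0.84. Of 26 small subunit genes 18 and 19 rose, with medians of 0.83 and 0.78. Inside the small subunit the proteins with no bacterial counterpart had the higher medians: 8 of 10 rose in the pooled tumors (median 1.25) and 9 of 10 in sgTrp53+MYC (1.26), while 10 of 16 with a bacterial counterpart rose in each (0.59 and 0.61). In the large subunit 22 of 29 genes with a bacterial counterpart (0.99) and 17 of 22 without (0.92) rose in the pooled tumors, and 21 and 14 in sgTrp53+MYC. No test was made between these classes.

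Mrpl19, a large subunit protein with a bacterial counterpart, showed the largest difference from liver in both comparisons. It was measured at 15.6, 16.2, 17.5, 14.6 and 17.6 CPM in livers, 119, 103, 80.5, 81.99 and 136 in Aldafermin+MYC, 147, 90.2, 102, 98.4 and 83.97 in FGF19+MYC and 164, 89.4, 93.04, 102 and 121 in sgTrp53+MYC tumors. The lowest tumor stood far above the highest liver. The log2 fold change was 2.67 (SE 0.187, adjusted p = 1.62e-10 by edgeR's quasi-likelihood test) for the pooled tumors and 2.80 (SE 0.200, adjusted p = 3.25e-10) for sgTrp53+MYC. The gene lies on mouse chromosome 6 (build GRCm39, 81934832 to 81942943, minus strand), and 39.2% of its exon bases are also exon of Gcfc2 on the other strand. Whether counting used the strand of reads is not given in the sources used here. Reads from the shared bases could therefore be missing from the value, as ambiguous, or be part of it, which was not tested.

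Mrpl3, the counterpart of a bacterial protein that reaches toward the peptidyl transferase centre, was measured at 26.4, 27.4, 28.98, 23.8 and 27.4 CPM in livers. Tumor values were 103, 84.8, 77.8, 68.7 and 138 in Aldafermin+MYC, 129, 71.2, 87.6, 90.2 and 66.7 in FGF19+MYC and 128, 77.4, 76.5, 83.3 and 101 in sgTrp53+MYC. The groups did not overlap with livers, and the highest value of each tumor group was the library that stands apart. The log2 fold changes were 1.77 (SE 0.189, edgeR adjusted p = 7e-08) and 1.80 (SE 0.206, adjusted p = 2.41e-07). Mrpl3 lies on chromosome 9 (GRCm39, 104930427 to 104958084, plus strand), with no exon of another gene over its own.

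The 4 largest rises of the small subunit in the pooled tumors, Mrps26, Mrps27, Mrps25 and Mrps22, were in proteins with no bacterial counterpart. Mrps27, a protein with the repeats typical of RNA-binding mitochondrial proteins, was measured at 39.2, 39.1, 37.1, 45.96 and 38.2 CPM in livers. In tumors it stood at 158, 147, 114, 121 and 152 for Aldafermin+MYC, 138, 133, 125, 95.8 and 116 for FGF19+MYC and 113, 103, 99.9, 112 and 124 for sgTrp53+MYC. Here only FGF19+MYC replicate 1, of the libraries that stand apart, was the highest of its group, and the tumors lay clear of the livers. Its log2 fold changes were 1.70 (SE 0.114, edgeR adjusted p = 9.3e-11) and 1.47 (SE 0.124, adjusted p = 3.42e-09).

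Mrps26 was measured at 25.5, 21.01, 21.9, 32.2 and 26.5 CPM in livers, and at 103, 74.3, 84.6, 69.6 and 92.2 in Aldafermin+MYC, 109.8, 84.2, 82.1, 64.5 and 74.6 in FGF19+MYC and 108, 80.7, 61.3, 76.4 and 74.4 in sgTrp53+MYC tumors. Tumors and livers were again apart, with log2 fold changes of 1.72 (SE 0.159, edgeR adjusted p = 8.9e-09) and 1.66 (SE 0.173, adjusted p = 6.91e-08). Mrps25 rose by 1.69 (SE 0.154) and 1.93 (SE 0.169), but 57.9% of its exon bases are shared with Nr2c2 on the other strand. Mrps22 rose by 1.60 and 1.98, Mrps9, which has a bacterial counterpart, by 1.503 and 1.95, and the large subunit gene Mrps30 by 1.61 and 2.01.

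The stalk of the large subunit recruits translation factors and is built of Mrpl12 on the base Mrpl10. Mrpl12 was measured at 169, 177, 161, 239 and 222 CPM in livers, 496, 363, 366, 319 and 631 in Aldafermin+MYC, 666, 363, 345, 296 and 355 in FGF19+MYC and 607, 341, 240.1, 279.6 and 262 in sgTrp53+MYC tumors. The libraries that stand apart held 607 to 666 CPM and the remaining tumors 240 to 496 CPM, the lowest of them just above the highest liver. Its log2 fold changes were 1.12 (SE 0.245, edgeR adjusted p = 0.000418) and 0.84 (SE 0.271, adjusted p = 0.00982). Mrpl10 rose in the pooled tumors by 0.64 (SE 0.109, adjusted p = 2.94e-05) and stood at 0.21 (SE 0.123, adjusted p = 0.134) in sgTrp53+MYC. Its own values are given with the comparison between tumors.

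Mrpl58, which frees stalled peptide chains and is also a structural part of the large subunit, was measured at 29.98, 35.8, 28.8, 47.1 and 39.5 CPM in livers, 59.2, 50.4, 50.5, 48.8 and 81.4 in Aldafermin+MYC, 84.9, 48.5, 53.3, 43.9 and 51.9 in FGF19+MYC and 93.6, 51.7, 35, 33.4 and 33.1 in sgTrp53+MYC tumors. Tumor and liver ranges overlapped. It rose in the pooled tumors by 0.66 (SE 0.239, edgeR adjusted p = 0.0178) and did not pass in sgTrp53+MYC (0.45, SE 0.268, adjusted p = 0.145).

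Mrps18a, Mrps18b and Mrps18c are paralogs related to a single bacterial ribosomal protein. In the classes above Mrps18c is counted as its counterpart, and Mrps18a and Mrps18b as proteins of mitochondria alone. Mrps18a rose by 0.91 (SE 0.109, edgeR adjusted p = 3.75e-07) and 0.93 (SE 0.122, adjusted p = 1.35e-06). Mrps18b rose by 1.18 (SE 0.114, adjusted p = 1.73e-08) and 0.90 (SE 0.125, adjusted p = 3.28e-06). Mrps18c was measured at 21.2, 23.4, 19.9, 28.6 and 30.7 CPM in livers, 23.9, 21.3, 17.3, 19.1 and 40.5 in Aldafermin+MYC, 44.9, 20.4, 21.7, 20.1 and 18.7 in FGF19+MYC and 48.6, 28.8, 18.3, 18.9 and 18.2 in sgTrp53+MYC tumors. Apart from the 3 libraries that stand apart, its tumor values lay within or near the liver range, and its log2 fold changes were 0.00 (SE 0.266, adjusted p = 0.994) and 0.10 (SE 0.306, adjusted p = 0.777). The difference between the 3 genes was not tested.

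Mrps36, the gene that is no ribosomal subunit, was measured at 10.8, 13.2, 10.3, 10.3 and 13.8 CPM in livers, 31.1, 27.7, 22.7, 28.3 and 45.1 in Aldafermin+MYC, 36, 22.9, 21.8, 20.8 and 23.1 in FGF19+MYC and 46.9, 30.2, 23.9, 23.8 and 30.7 in sgTrp53+MYC tumors. All tumors stood above all livers. Mrps36 rose by 1.25 (SE 0.194, edgeR adjusted p = 1e-05) and 1.41 (SE 0.215, adjusted p = 9.56e-06), although a near-identical copy on chromosome 17 covers 55.8% of its transcript and could take or give reads.

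**Figure D3:**
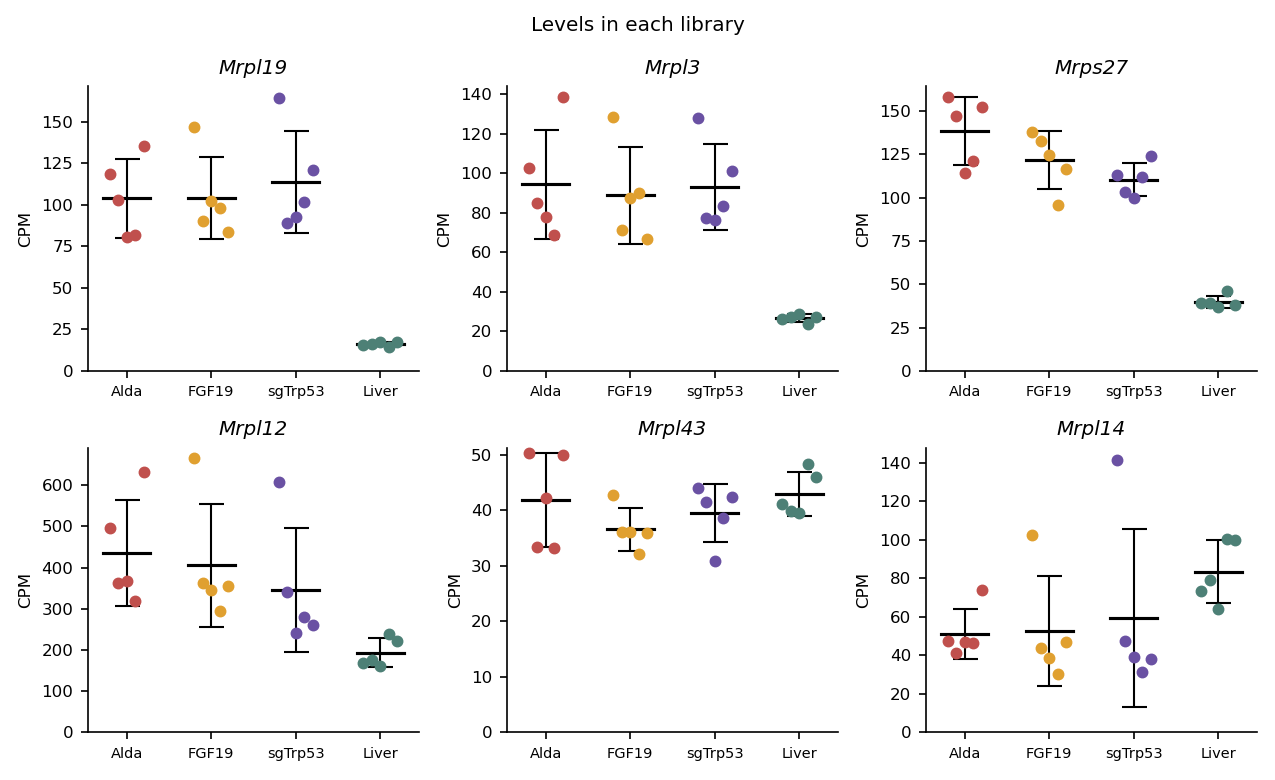
CPM (vertical axis, from 0) of 6 genes in each library by group, with the mean as a bar and 1 SD as whiskers, n = 5 a group. Mrpl19, Mrpl3 and Mrps27 lie above liver in every tumor library, Mrpl43 overlaps it, and Mrpl14 lies below liver after TMM scaling, which turns with library size as the only scaling, except in the 3 libraries that stand apart, such as sgTrp53+MYC replicate 1 at 141 CPM.

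A few genes did not share the rise. Mrpl14, a large subunit protein with a bacterial counterpart, was measured at 73.4, 79.3, 63.9, 100.4 and 99.8 CPM in livers, 47.3, 41.03, 46.7, 46.3 and 73.97 in Aldafermin+MYC, 102, 43.9, 38.7, 30.4 and 47.03 in FGF19+MYC and 141, 47.4, 39.2, 31.3 and 37.9 in sgTrp53+MYC tumors. Only the 3 libraries that stand apart reached the liver range. The log2 fold changes were -0.69 (SE 0.313, edgeR adjusted p = 0.0543) and -0.49 (SE 0.370, adjusted p = 0.248). Without sgTrp53+MYC replicate 1 they were -0.69 (adjusted p = 0.00872) and -1.09 (adjusted p = 0.0021), and without FGF19+MYC replicate 1 the first was -0.88 (adjusted p = 0.00894). Without those 3 libraries they were -0.98 (adjusted p = 3.07e-06) and -1.06 (adjusted p = 1.38e-05), and with library size as the only scaling they were 0.13 and 0.34, so the sign of Mrpl14 rests on the scaling.

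Mrpl43 was measured at 41.1, 39.9, 39.6, 48.4 and 46.1 CPM in livers, 50.4, 33.5, 42.3, 33.2 and 50.01 in Aldafermin+MYC, 42.8, 36.1, 36.1, 32.1 and 35.96 in FGF19+MYC and 44.01, 41.6, 30.8, 38.6 and 42.5 in sgTrp53+MYC tumors. The groups overlapped, with log2 fold changes of -0.14 (SE 0.118, edgeR adjusted p = 0.308) and -0.12 (SE 0.137, adjusted p = 0.437). With library size as the only scaling they were 0.70 and 0.75, so the sign of Mrpl43 rests on the scaling too. With a correction for GC content and transcript length they were -0.35, which passed as lower (adjusted p = 0.00227), and -0.21 (adjusted p = 0.0889). Close to 0 in the pooled tumors were also Mrpl24 (0.00), Mrpl27 (0.11) and Mrpl23 (0.13), and in sgTrp53+MYC Mrps16 (-0.05), Mrpl23 (-0.08) and Mrpl27 (0.03). Mrpl23 and Mrpl27 have near-identical copies elsewhere in the genome, among 12 of the 78 genes that do. Of those 12 genes 7 rose in the pooled tumors and 9 in sgTrp53+MYC, and of the other 66 genes 51 and 46 rose.

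Genes that passed in 1 comparison only, or in neither, were named after their values were seen. The 9 that rose in the pooled tumors only were Mrpl10, Mrpl17 (1.02), Mrpl28 (0.89), Mrpl30 (0.53), Mrpl48 (0.81), Mrpl52 (0.99), Mrpl55 (0.39), Mrpl58 and Mrps7 (0.48). In sgTrp53+MYC their fold changes were above 0 as well, from 0.07 for Mrpl55 to 0.90 for Mrpl28. The 6 that rose in sgTrp53+MYC only were Mrpl15 (0.73), Mrpl32 (1.19), Mrpl33 (1.00), Mrpl39 (0.36), Mrps10 (0.80) and Mrps33 (0.89), and in the pooled tumors they stood between 0.17 and 0.86. Beside the genes described above, those that passed in neither were Mrpl41 (0.52 and 0.65), Mrpl51 (0.20 and 0.09), Mrpl53 (0.42 and 0.17), Mrps12 (0.30 and -0.31), Mrps21 (0.37 and 0.28), Mrps24 (0.50 and 0.43) and Mrps34 (0.45 and 0.55), with the pooled tumors first. Of these 14 genes 9 have a bacterial counterpart, as do 29 of all 51 large and 16 of all 26 small subunit genes, a similar share.

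TMM sets the bulk of genes equal, and the livers, whose reads are taken up by a few abundant mRNAs, had factors of 0.615 to 0.682 against 0.997 to 1.31 in tumors. With library size as the only scaling the median of all genes moved to 0.94 in the pooled tumors and 0.95 in sgTrp53+MYC. The 78 genes then had medians of 1.77 and 1.69, and 77 of 78 rose in each, while 79.5 and 76.4% of all genes passed in either direction. A change of scaling moves all genes by nearly the same amount. It therefore cannot test the distance of the 78 genes from the median gene. When a correction for GC content and transcript length was fitted, 55 rose and 5 fell in the pooled tumors (median 0.72), and 55 rose and 2 fell in sgTrp53+MYC (0.67). Of all genes, 76.3 and 73.6% passed in either direction with that correction.

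The second question was whether the tumors with an FGF19-type hormone differ from those with the Trp53 guide, where both carried the MYC plasmid. Few mitochondrial ribosomal protein genes did. In edgeR's quasi-likelihood test 4 of 78 were higher in the pooled Aldafermin+MYC and FGF19+MYC tumors and 5 lower (11.5%), against 11.6% of all genes higher, 12.1% lower and 23.7% changed. The median log2 fold change was 0.05, against -0.02 over all genes, and 42 of 78 were above 0. Mrpl10 was the only gene whose groups did not overlap, where 3.28% of all genes stood apart as higher and 2.42% as lower. For 72 of the 78 genes the 95% interval of the difference lay inside 1 log2 unit on either side of 0, reaching a median of 0.38 to each side of the estimate. The 9 genes that passed are Mrps12, Mrps11, Mrpl10 and Mrpl36 on the higher side and Mrps5, Mrps30, Mrpl49, Mrpl47 and Mrpl32 on the lower side, of which Mrpl49 alone was named after its values were seen.

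**Figure D4:**
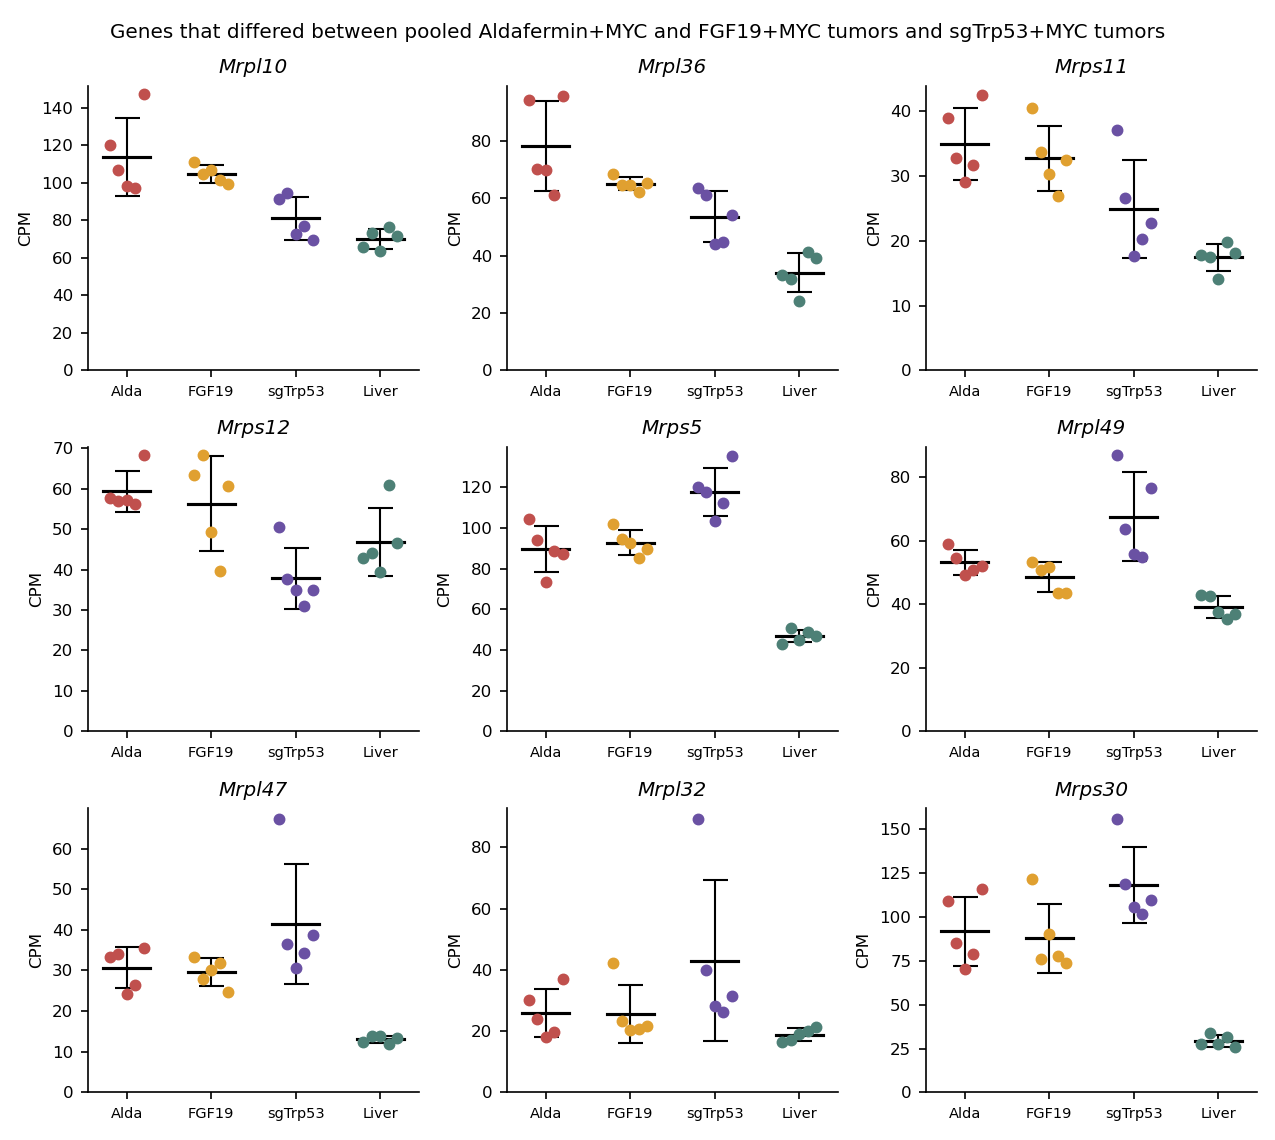
CPM (vertical axis, from 0) in each library, by group, of the 9 genes that passed between the pooled Aldafermin+MYC and FGF19+MYC tumors and the sgTrp53+MYC tumors, with mean and SD (n = 5 a group). Mrps12, Mrps11, Mrpl10 and Mrpl36 are lower in sgTrp53+MYC and the other 5 higher, by 0.37 to 0.74 on the log2 scale; the difference is smaller than the step of the pooled tumors from liver for Mrps30 (0.40 in size against 1.61) and larger for Mrps12 (0.61 against 0.30).

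Mrps12, a small subunit protein at the decoding site, was measured at 57.7, 56.96, 57.2, 56.1 and 68.4 CPM in Aldafermin+MYC, 63.5, 68.3, 49.2, 39.6 and 60.7 in FGF19+MYC, 50.6, 37.6, 35.05, 30.9 and 34.98 in sgTrp53+MYC tumors and 42.9, 44.1, 39.4, 60.98 and 46.5 in livers. Most sgTrp53+MYC tumors lay below the other tumors, but sgTrp53+MYC replicate 1 lay above FGF19+MYC replicates 3 and 4. The log2 fold change was 0.61 (SE 0.142, edgeR adjusted p = 0.00454). Against livers it stood at 0.30 (adjusted p = 0.0574) in the pooled tumors and at -0.31 (adjusted p = 0.0937) in sgTrp53+MYC. With library size as the only scaling the sgTrp53+MYC value turned to 0.57 (adjusted p = 0.00125). It passed as lower without the 3 libraries that stand apart (-0.40, adjusted p = 0.0195) and without sgTrp53+MYC replicate 1 alone (-0.43, adjusted p = 0.0171). With the correction for GC content and length it was -0.35 (adjusted p = 0.0211), and the pooled value turned to -0.21 (adjusted p = 0.0941). The sign of Mrps12 against livers thus rests on the processing.

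Mrpl10, the base of the stalk, was measured at 120.2, 107, 98.4, 97.5 and 148 CPM in Aldafermin+MYC, 111, 105, 107, 101 and 99.2 in FGF19+MYC, 91.6, 94.7, 72.7, 76.9 and 69.5 in sgTrp53+MYC tumors and 65.9, 73.1, 63.5, 76.3 and 71.8 in livers. The highest sgTrp53+MYC tumor stayed just under the lowest of the other tumors. The log2 fold change was 0.43 (SE 0.108, edgeR adjusted p = 0.00748). However, 49.4% of its exon bases are shared with Gm11574 on the other strand, and the 2 tables differ in the share of ambiguous reads. The part of that difference in the value was not tested.

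Mrps5, a small subunit protein near the mRNA entry, went the other way and was measured at 104, 93.9, 73.3, 88.9 and 87.1 CPM in Aldafermin+MYC, 102, 94.8, 92.7, 85.1 and 89.8 in FGF19+MYC, 119.9, 118, 103, 112 and 135 in sgTrp53+MYC tumors and 43.04, 50.99, 45.1, 48.8 and 46.9 in livers. Only Aldafermin+MYC replicate 1 reached the sgTrp53+MYC range. The log2 fold change was -0.37 (SE 0.089, edgeR adjusted p = 0.006). No exon of another gene overlaps Mrps5, Mrps12, Mrps11, Mrpl36 or Mrpl32.

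Mrpl49 was measured at 59.1, 54.5, 49.4, 50.9 and 52.05 CPM in Aldafermin+MYC, 53.4, 50.9, 51.6, 43.5 and 43.4 in FGF19+MYC, 86.96, 63.9, 55.7, 54.9 and 76.7 in sgTrp53+MYC tumors and 42.8, 42.6, 37.5, 35.4 and 37.02 in livers, with a log2 fold change of -0.41 (SE 0.108, edgeR adjusted p = 0.00964). The ranges touched at the lower sgTrp53+MYC tumors. Mrpl32 was measured at 30.3, 23.9, 18.2, 19.7 and 37.1 in Aldafermin+MYC, 42.2, 23.3, 20.3, 20.5 and 21.5 in FGF19+MYC, 89.2, 39.9, 28.1, 26.3 and 31.4 in sgTrp53+MYC tumors and 16.4, 17.2, 19.1, 20.01 and 21.4 in livers. Its difference of -0.74 (SE 0.255, adjusted p = 0.0405) had sgTrp53+MYC replicate 1 far above all others, and without the 3 libraries that stand apart it was -0.55 (adjusted p = 0.00526).

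Mrps30 differed by -0.40 (SE 0.142, edgeR adjusted p = 0.0486) and Mrpl47 by -0.46 (SE 0.151, adjusted p = 0.0333), with 19.3 and 18.3% of their exon bases shared with genes on the other strand. Mrpl36, a very small large subunit protein with a bacterial counterpart, differed by 0.41 (SE 0.137, adjusted p = 0.0345). Mrps11, a small subunit protein with a bacterial counterpart, differed by 0.45 (SE 0.155, adjusted p = 0.0426). It lies on chromosome 7 (GRCm39, 78432867 to 78442739, plus strand), and the start of Mrpl46 on the other strand lies 412 bases away. Mrpl46 differed by 0.57 and did not pass (adjusted p = 0.0592), and Mrpl17 had the highest value of all at 0.64 (adjusted p = 0.122). Size alone did not decide which genes passed.

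These 9 calls were unequal in how well they held. Mrps12, Mrpl10, Mrps5 and Mrpl49 passed whichever of the 20 libraries was left out, and in 10, 10, 10 and 11 of 11 other settings. Mrpl36, Mrpl47 and Mrpl32 passed in 15, 14 and 11 of the 20 omissions, Mrps11 in 8 and Mrps30 in 4. Without sgTrp53+MYC replicate 1 the count became 15 higher and 2 lower, while 25.4% of all genes passed. Without the 3 libraries that stand apart it was 11 higher and 9 lower, which included the original 4 and 5, while the share of all genes rose to 31.9%. With the correction for GC content and length it was 5 higher and 9 lower, with 2 and 1 of the original genes among them, and 25.7% of all genes passed.

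The third question was whether Aldafermin and FGF19, the analog and the hormone it was derived from, gave tumors with different levels. No mitochondrial ribosomal protein gene differed: 0 of 78 passed in edgeR's quasi-likelihood test, as did 0.0% of all genes. At an unadjusted p under 0.05 there was 1 gene of 78, Mrps31 (log2 fold change 0.27 higher in Aldafermin+MYC, SE 0.120, edgeR adjusted p = 0.632), and 1048 of all genes. DESeq2 passed 96 genes and edgeR's likelihood ratio test 59, of which 0 were in the list. The Aldafermin+MYC values lay wholly above or below the FGF19+MYC values for 0 of the 78 genes, where 1.07% of all genes lay above and 0.391% below. The largest difference was 0.32, in Mrps36, and the median 0.09 against 0.02 over all genes, with 65 of 78 above 0. That lean shifted with single omissions: the median was -0.09 without Aldafermin+MYC replicate 5 and 0.27 without FGF19+MYC replicate 1. Each of these omissions leaves such a library on the other side only. Without all 3 libraries that stand apart the median was 0.08, against -0.001 over all genes.

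The precision of that comparison was limited but not low. The median SE was 0.21, and for 75 of 78 genes the 95% interval of the difference lay inside 1 log2 unit on either side of 0, with bounds from -1.06 for Mrpl57 to 1.01 for Mrpl41 over all 78. These intervals do not show that the proteins act alike.

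**Figure D5:**
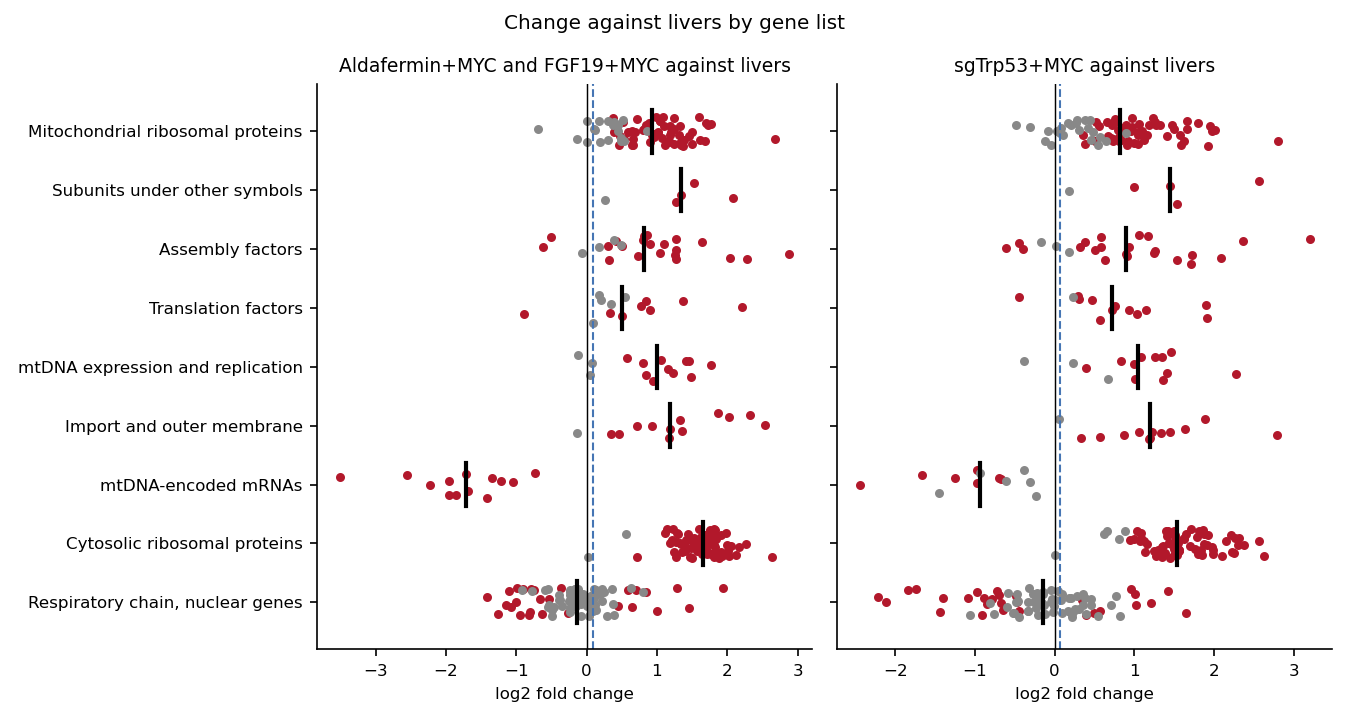
Log2 fold change against livers (horizontal axis) of every gene in 9 gene lists, for the pooled Aldafermin+MYC and FGF19+MYC tumors on the left and sgTrp53+MYC on the right, red where the adjusted p was under 0.05. The black bar is the list's median and the dashed line the median of all genes tested (0.10 and 0.07); the mitochondrial ribosomal proteins (0.94 and 0.83) lie between the cytosolic ribosomal proteins (1.66 and 1.53) and the mRNAs made from mitochondrial DNA (-1.72 and -0.93).

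The other parts of the mitochondrial translation system were set beside the ribosomal proteins, each as a list with its count and median. Of 5 ribosomal subunit genes that carry other symbols 4 rose in each comparison with livers (medians 1.34 and 1.45), led by Ptcd3, a small subunit protein, at 2.08 and 2.56. Of 25 assembly factors 19 rose and 2 fell in the pooled tumors (0.82), and 19 rose and 3 fell in sgTrp53+MYC (0.90). The GTPase Noa1 rose by 2.89 (SE 0.124, edgeR adjusted p = 3.08e-13) and 3.20 (SE 0.134, adjusted p = 3.09e-13), more than any ribosomal protein gene. Mterf3 and Mterf4, regulators of mitochondrial transcription and ribosome assembly, were among those that fell, but with library size as the only scaling 24 of 25 rose and 0 fell in each. Under that scaling the median of all genes was itself 0.94 and 0.95, and 79.5 and 76.4% of all genes passed in either direction. The counts with library size given for the lists below are to be read against these values.

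Of 13 translation factors 7 rose and 1 fell in the pooled tumors (median 0.51), and 11 rose and 1 fell in sgTrp53+MYC (0.72). Tsfm, an elongation factor, rose by 2.21 and 1.91. The gene that fell in both was Mtif3, an initiation factor (-0.89 and -0.44), although 0 of the list fell with library size as the only scaling. Of 14 genes for the expression and copying of mitochondrial DNA 11 rose in each (1.00 and 1.05), with Pnpt1, an RNA-degrading enzyme, at 1.77 and 2.27. Of 13 genes of import and the outer membrane 12 rose in each (1.18 and 1.20), with the import receptor Tomm20 at 2.54 and 2.79.

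Regulators known to act on such genes were mixed. Of 9 listed, 3 rose and 3 fell in the pooled tumors, and 4 rose and 0 fell in sgTrp53+MYC. Pprc1, a coactivator of the PGC-1 family, rose by 2.75 (SE 0.252, edgeR adjusted p = 7.94e-09) and 2.70 (SE 0.268, adjusted p = 3.44e-08). The transcription factor Nrf1 rose by 1.01 and 0.78 and the GABP subunit Gabpb1 by 0.74 and 0.55. The coactivators Ppargc1a (-0.79) and Ppargc1b (-0.74) and the factor Yy1 (-0.52) fell in the pooled tumors, whereas with library size as the only scaling 7 rose and 0 fell in each comparison.

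The mRNAs that these ribosomes translate were counted too. Of the mtDNA-encoded proteins, all 13 had lower mRNA in the pooled tumors (median -1.72) and 7 of 13 in sgTrp53+MYC (-0.93), with 0 higher. Their summed level was 40050 to 64580 CPM in livers, 8198 to 20800 in Aldafermin+MYC, 15350 to 28940 in FGF19+MYC and 20690 to 31280 in sgTrp53+MYC tumors. With library size as the only scaling 8 and 1 of 13 were lower (medians -0.84 and -0.05). Between tumors, 5 of 13 were lower and 1 higher in the pooled set than in sgTrp53+MYC (median -1.04), the higher gene being ND6, the only one encoded on the light strand.

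Cytosolic ribosomal protein genes, many of which have near-identical pseudogenes that could take reads, were counted in the same way. Of 80 tested among 83 found by symbol, 78 rose in the pooled tumors and 75 in sgTrp53+MYC, with medians of 1.66 and 1.53. Their summed level too was highest in the libraries that stand apart, at 114600, 175800 and 141000 CPM against group medians of 61620, 56240 and 59470. Without those 3 libraries the medians were 1.23 and 1.20. Nuclear genes for respiratory chain and ATP synthase subunits, 88 tested of 93, did not follow: 9 rose and 18 fell in the pooled tumors (median -0.14), and 10 rose and 19 fell in sgTrp53+MYC (-0.15). With library size as the only scaling 55 rose and 2 fell in the pooled tumors (0.67), so no direction can be given for that list. The mitochondrial ribosomal proteins lay above it with TMM, an order that a change of scaling can hardly alter.

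Some features of the genes themselves were compared with the values. The 78 genes lie on 17 chromosomes, and for 42 of them exons of another gene overlap their own. Of those 42 genes 33 rose in the pooled tumors and 30 in sgTrp53+MYC (medians 1.02 and 0.91), and of the 36 without overlap 25 rose in each (0.87 and 0.78). For 29 genes the start of a protein-coding gene on the other strand lies within 1000 bases. In 26 such pairs whose neighbour was tested, both genes rose in the pooled tumors in 8, the ribosomal protein gene rose and the neighbour fell in 6, only the ribosomal protein gene passed in 5, only the neighbour passed in 6, and neither passed in 1. Of all genes tested 39.2% rose and 34.5% fell in that comparison. No link between the genes of a pair was tested, and the counts only describe these pairs. Pairs with large differences in size, picked after their values were seen, were these: beside Mrpl27 (0.11 in the pooled tumors, adjusted p = 0.659 by edgeR's quasi-likelihood test) the DNA repair nuclease gene Eme1 rose by 6.30, and beside Mrpl57 (1.502, adjusted p = 0.00235) the kinetochore gene Ska3 rose by 7.23. Beside Mrpl48, which rose by 0.81, the trafficking gene Rab6a fell by 0.48. Sars2, the mitochondrial seryl-tRNA synthetase gene beside Mrps12, rose by 1.15 and 0.79, and between tumors it stood at 0.36 (adjusted p = 0.0690), against 0.61 for Mrps12.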

How the data were processed

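RNA from 15 tumors and 5 livers was sequenced as paired-end, stranded TruSeq mRNA libraries. The authors aligned reads to the NCBI Mm39 genome with HISAT2, used htseq-count and RefSeq gene models for counting, and deposited raw counts in 2 tables, with no normalization or filter. The submitters' processing notes name bcl2fastq 2.20.0.422, HISAT2 and mm39. The strand setting of counting is not given in the sources used here. All sample columns were used (0 left out), and the summary lines of htseq-count, which name no gene, stayed out of library sizes and tests: ambiguous reads were 3.03 to 14.6% and reads not aligned 5.34 to 34.0% of a library.

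Counts of both tables were joined by symbol and analysed in R 4.3.3 with edgeR 4.0.16, limma 3.58.1 and DESeq2 1.42.0, and in Python 3.11.15. The filter asked for 1 CPM or more in no fewer than 5 libraries. After TMM scaling, 1 quasi-likelihood model held all 4 groups, with Benjamini-Hochberg adjustment over 14333 genes and calls at 0.05. Aldafermin+MYC was set against FGF19+MYC, their average against sgTrp53+MYC and livers, and sgTrp53+MYC against livers. The scripts were tested on simulated data. Replicate numbers do not pair the samples. According to the paper, the sequenced tumors came from different mice and its replicates are biological. The p-values weigh a difference between groups against the spread between libraries of a group. The lowest chi-square over degrees of freedom between libraries of a group was 13.9, so none is a copy of another.

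Named genes were, in each comparison, the 5 with the highest and the 5 with the lowest log2 fold change, the 3 highest and 3 lowest per kilobase in liver, genes that passed against the main direction, the Mrps18 genes, Mrpl10, Mrpl12, Mrpl58 and Mrps36, and from each other list the passing gene with the largest change. The members and lists were chosen with earlier results of these data known. Lengths, coordinates and exon overlaps came from GENCODE M39 canonical transcripts on GRCm39, while counting used RefSeq. Near-identical copies were matches of at least 95% identity over at least 50% of a transcript (minimap2 2.31-r1302). Start regions came from RefSeq on GRCm38.p6 and the first listed window was used. Alternatives were DESeq2, edgeR's likelihood ratio test, other scalings and filters, models of the compared groups only, a replicate block, a correction for GC content and length, and each library left out. Leaving out the 3 libraries that stand apart and using the first table alone were added after the data were seen.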

Additional observations from a re-analysis of the deposited data

Results flagged for a closer look

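In some groups of 5 libraries a single value lay far from the other 4, its gap to the nearest being more than 0.71 of the whole range. Of 156 groups examined 45 met this. For independent groups about 1 in 20, or 7.8, would do so by chance. These groups are the 38 named genes and the sum in the same 20 libraries, and many of the genes were named for extreme values. The 7.8 is therefore no measure of chance here. In CPM, FGF19+MYC replicate 1 was far above its group for Mrpl12 (666.1), Mrpl14 (102.2), Mrpl17 (266), Mrpl23 (70.72), Mrpl24 (121.7), Mrpl27 (79.87), Mrpl32 (42.2), Mrpl33 (97.9), Mrpl42 (194.8) and Mrpl46 (95.61). The same library stood apart for Mrpl48 (107.7), Mrpl54 (107.2), Mrpl57 (178.2), Mrpl58 (84.89), Mrps16 (103.9), Mrps18c (44.87), Mrps22 (94.38), Mrps25 (55.03), Mrps33 (31.42), Mrps36 (36) and Mrps9 (124.2), and for the sum over the 78 genes (8655). In sgTrp53+MYC replicate 1 the high values were those of Mrpl12 (607), Mrpl14 (141.4), Mrpl32 (89.15), Mrpl46 (68.24), Mrpl47 (67.21), Mrpl48 (87.94), Mrpl57 (175), Mrps22 (140.9) and Mrps33 (62.36), and the sum (9277). Aldafermin+MYC replicate 5 was far above its group for Mrpl14 (73.97), Mrpl17 (260), Mrpl33 (74.76), Mrpl46 (89.91), Mrpl48 (108.7), Mrpl57 (122.6), Mrps12 (68.36), Mrps16 (84.35) and Mrps18c (40.49). The remaining values were Mrpl38 in sgTrp53+MYC replicate 5 (166.8), Mrps18b in FGF19+MYC replicate 5 (64.25), Mrps27 in Liver replicate 4 (45.96) and Mrps9 in Liver replicate 5 (32.27), of which those in tumors were the lowest of their group. FGF19+MYC replicate 1, sgTrp53+MYC replicate 1 and Aldafermin+MYC replicate 5 are the libraries in which short transcripts were high, and the part of transcript length in these values was not tested.

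The change from liver differed between the pooled Aldafermin+MYC and FGF19+MYC tumors and the sgTrp53+MYC tumors for 9 genes in edgeR's quasi-likelihood test. As log2 fold change of the pooled tumors minus that of sgTrp53+MYC, these were Mrpl10 (0.431), Mrpl32 (-0.742), Mrpl36 (0.413), Mrpl47 (-0.459), Mrpl49 (-0.412), Mrps11 (0.446), Mrps12 (0.611), Mrps30 (-0.397) and Mrps5 (-0.369). The sgTrp53+MYC libraries came in a table of their own, and table and genotype cannot be told apart.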

How the results depend on the processing

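No passing value of a named gene turned its direction under any alternative, and over all alternatives their calls held 1822 times and were lost 96 times. Many of these genes were named for extreme values in the same data, and only calls that passed were followed. Most alternatives leave out a single library and share the rest with the main test, so this tally is no independent support. Leaving out each library in turn, the pooled tumors had 53 to 65 genes above livers and 0 to 1 below, sgTrp53+MYC 45 to 60 above and 0 to 2 below, the pooled tumors against sgTrp53+MYC 2 to 15 higher and 2 to 7 lower, and Aldafermin+MYC against FGF19+MYC 0 to 0. The replicate numbers do not pair the samples: of 30 pairs with the same number 6 correlated above 0.1 (-0.333 to 0.333) and 1 library correlated best with its own number, and with the replicate block the pooled tumors had 60 genes above livers and 1 below, sgTrp53+MYC 55 and 0, and the 2 tumor sets differed in 5 and 5. Genes lower than livers in the pooled tumors, 0 in the main test, were 1 with DESeq2, the likelihood ratio test, RLE scaling, only the groups compared, the first table alone or the 3 libraries left out, and 5 with the GC and length correction. In sgTrp53+MYC they were 2 with that correction and 3 without the 3 libraries. Against sgTrp53+MYC, the higher genes were 2 with RLE, 1 with no filter and 11 without the 3 libraries, and the lower genes 8 with library size, 2 with only the groups compared, 9 with the GC and length correction and 9 without the 3 libraries. The cause was not tested. No gene had fewer than 98 reads in any library.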
